A study of Mus musculus with 6 samples.

Results

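Expression of 30 genes of cholesterol synthesis, uptake and transport was followed in a mouse mammary carcinoma line, 4T1-LM3. The genes were matched by symbol in a table of 16426 genes, and all 30 had at least 1 FPKM (fragments scaled by transcript length and library size) in at least 3 libraries. Of the whole table, 10804 genes met that minimum. Messenger RNA was measured in 6 samples of the one line, all given conditioned medium (CM), the fluid in which other cells have grown. The donors of the CM were matrix fibroblasts (MFs) with the label Tdo2high in 3 samples, a name taken from the enzyme that opens the route from tryptophan to kynurenine; the other 3 received a control CM, whose source and length of exposure the sources used here do not give. The medium as a whole differs between the groups, so the part of Tdo2 in the donor cells and that of any other difference between the media cannot be told apart.

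Cells build cholesterol from acetyl-CoA. The mevalonate enzymes make isoprenoid units, the squalene enzymes join and close them into lanosterol, and a last set trims lanosterol to cholesterol. Supply is set by feedback. When sterol in the endoplasmic reticulum is low, SCAP carries the transcription factor SREBP2 (gene Srebf2) to the Golgi, where it is cut and freed to switch on the synthesis genes; when sterol is plentiful, INSIG proteins hold SCAP back. Excess sterol is esterified for storage, moved between membranes by carrier proteins or exported through transporters under the liver X receptors (LXRs). Insig1 is itself a classical SREBP2 target.

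The promoters below are shown because Insig1 and Cyp51 passed the test between the media and Hmgcs1, a textbook SREBP2 target, did not. They are RefSeq windows on GRCm38.p6, from 250 bases before to 50 bases after the annotated start, written 5′ to 3′ on the gene's strand. Capitals mark TCACNCCAC (a short form of the sterol regulatory element, SRE) and CCAAT (the NF-Y box), on either strand. The Insig1 window is chr5:28071162-28071461 on the plus strand, that of Cyp51 chr5:4104648-4104947 on the minus strand and that of Hmgcs1 chr13:119690101-119690400 on the plus strand.
Insig1: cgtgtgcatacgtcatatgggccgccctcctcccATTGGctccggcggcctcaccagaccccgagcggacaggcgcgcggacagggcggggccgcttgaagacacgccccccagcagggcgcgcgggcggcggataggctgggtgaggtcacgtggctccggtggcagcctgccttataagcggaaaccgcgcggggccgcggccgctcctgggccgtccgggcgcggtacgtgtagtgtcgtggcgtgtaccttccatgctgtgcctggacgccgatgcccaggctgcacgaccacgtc
Cyp51: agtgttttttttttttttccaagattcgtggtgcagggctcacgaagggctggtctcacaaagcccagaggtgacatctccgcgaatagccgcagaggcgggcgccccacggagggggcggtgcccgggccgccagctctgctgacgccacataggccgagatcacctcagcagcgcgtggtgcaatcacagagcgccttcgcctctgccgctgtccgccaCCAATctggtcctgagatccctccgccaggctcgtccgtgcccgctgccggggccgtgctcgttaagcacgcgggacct
Hmgcs1: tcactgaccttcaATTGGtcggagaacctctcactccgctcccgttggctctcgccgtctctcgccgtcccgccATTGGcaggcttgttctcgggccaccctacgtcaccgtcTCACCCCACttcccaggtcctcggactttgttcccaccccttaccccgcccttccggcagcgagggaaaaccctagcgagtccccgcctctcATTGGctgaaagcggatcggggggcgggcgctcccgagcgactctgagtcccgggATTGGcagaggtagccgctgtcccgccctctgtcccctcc

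The Hmgcs1 window held the short SRE from position -137 to -129 relative to the start (counted as 1, with no position 0) and 4 NF-Y boxes. The Insig1 window held 1 NF-Y box, at -216 to -212, and the Cyp51 window 1, at -29 to -25. Neither held the short SRE in these letters. Apart from the longer form named below, other spellings of the SRE were not searched for. A window without these letters may thus still hold an SRE. RefSeq windows were found for 25 of the 30 members; Fdps, Fdft1, Sqle, Stard4 and Npc1 had none in the table. An NF-Y box lay in a window of 21 of the 25 members (84%), against 44% of the 8752 tested genes with a window and 41.1% of all 27025 genes with one. A GC box (GGGCGG, which overlaps neither motif in its letters) lay in 22 of 25 (88%), against 70.6% of tested genes and 38.2% of all genes. The short SRE was found in 1 member, Hmgcs1 (4%), against 1.26% of tested genes, and no member held the longer form with an A before it, which 0.16% of tested genes hold. Such matches describe letters in these windows and not bound sites.

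**Figure D1:**
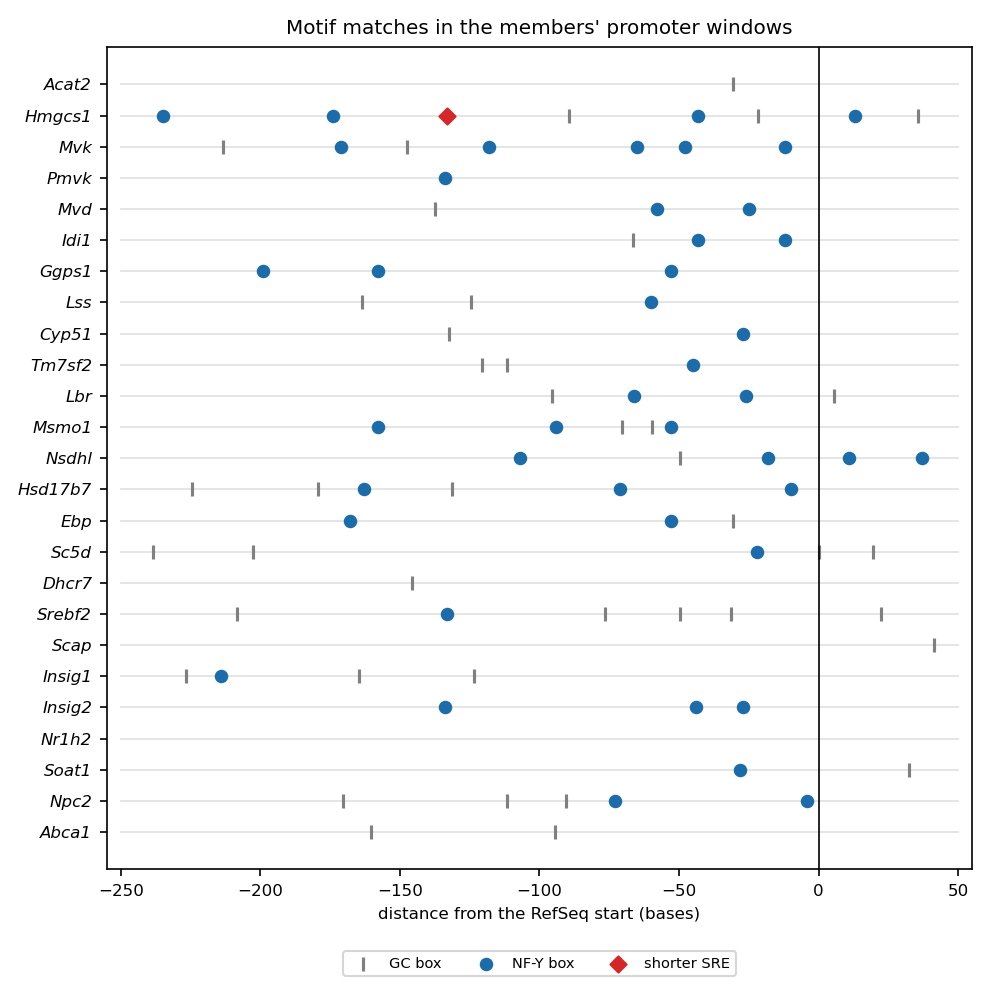
Positions of 3 motifs in the promoter windows of 25 members. The horizontal axis is the distance in bases from the RefSeq start, each row is the first listed window of 1 member, and symbols are matches on either strand; most NF-Y boxes lie upstream of the start, the short SRE is in the Hmgcs1 row only, and the 2 NF-Y boxes of Dhcr7 lie in another of its windows, not drawn.

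The libraries held a total of 438603 to 447415 FPKM each, and read depth is unknown. Across genes, libraries of one group correlated at Pearson's r of 0.9972 to 0.9977 and libraries of different groups at 0.9956 to 0.9961, on log2(FPKM + 1). Nothing in the labels shows whether replicates were grown separately; each p-value thus covers sample-to-sample spread that may be technical. Of 7 epithelial markers, 6 were in the table. Krt8 and Krt18 were abundant, while Epcam, Cdh1, Krt14 and Cldn7 did not exceed 0.11, 0.02, 0.06 and 0.13 FPKM. The 7 fibroblast markers in the table summed to 80.5 to 82.4 FPKM with control CM and 80.8 to 82.7 with Tdo2high CM. Of these, Col1a1, Col1a2, Lum and Acta2 did not exceed 0.12, 0.01, 0.03 and 0.08 FPKM. Pdgfrb had means of 23.6 and 23.1 FPKM and did not pass (adjusted p = 0.644 by limma). Within the fibroblast sum 2 markers changed in opposite directions by limma: Dcn fell from a mean of 15.5 to 10.9 FPKM (adjusted p = 0.00114) and Pdgfra rose from 41.9 to 47.3 (adjusted p = 0.00518). Summed mesenchymal markers were 1964 to 2074 with control CM and 1837 to 1905 with Tdo2high CM. Among them, Fn1 fell from a mean of 316 to 259 FPKM and Sparc from 442 to 390 (adjusted p = 0.00137 and 0.00371 by limma). Vim, the most abundant of them, did not pass (adjusted p = 0.423). The part of these marker shifts in the results was not tested. In bulk RNA, fewer cells with a transcript and less of it per cell cannot be told apart.

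After Tdo2high CM, 3 of the 30 sterol genes rose and none fell by limma at an adjusted p under 0.05: the feedback gene Insig1, the sterol carrier gene Stard4 and the lanosterol demethylase gene Cyp51. The rises were small, 21.1%, 17.0% and 13.1% in mean FPKM. The background was 3.35% of all tested genes called higher and 4.06% called lower, so 10% and 0% of the members compare with these. At an unadjusted p under 0.05 the counts were 9 members higher (30%, background 9.68%) and 2 lower (6.67%, background 14.1%). Under the median of ratios, the split over all genes turned from 362 higher and 439 lower to 455 and 367, and that of the members from 3 and 0 to 4 and 0. With no filter on low values, and with the replicate block, 1 member was called higher. Insig1 was the member that passed in all 16 alternatives. The 3 control libraries did not overlap the 3 Tdo2high libraries in 11 members with Tdo2high CM higher (36.7%, background 11.6%) and in 2 with it lower (6.67%, background 17.5%). The median log2 difference was 0.08 over the members and -0.01 over all tested genes. In direction, 21 of 30 members (70.0%) lay above 0, against 43.6% of all tested genes. The members were chosen with earlier results of these data known, and all were read from the same 6 libraries. These shares are thus descriptions, and the members are not independent observations. Since 1 is added before taking log2, the differences of genes with low FPKM are understated, as for Abca1 and Tm7sf2.

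**Figure D2:**
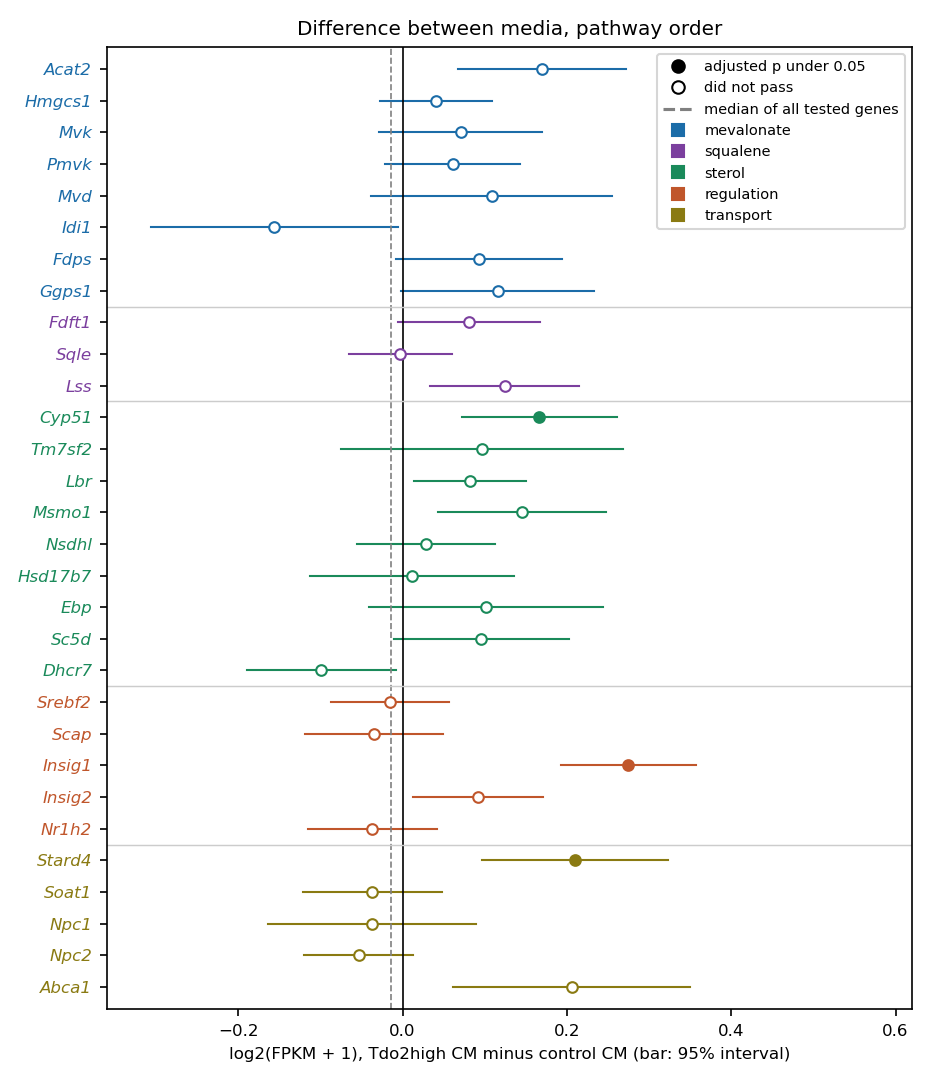
Difference in log2(FPKM + 1) between Tdo2high CM and control CM for each of the 30 members, in pathway order from top to bottom, with 95% intervals of the limma fit. Filled points (Cyp51, Insig1, Stard4) passed an adjusted p under 0.05; the dashed line is the median of all tested genes, -0.014, and Idi1 and Dhcr7 are the lowest points.

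The members that sense and regulate sterol differed among themselves. Insig1, which anchors SCAP in the endoplasmic reticulum, had 102.17, 92.84 and 97.26 FPKM with control CM and 117.77, 115.42 and 120.75 with Tdo2high CM. Every Tdo2high library lay above every control library. The log2 difference was 0.27 ± 0.04 (SE; 95% interval 0.19 to 0.36; adjusted p = 0.00211 by limma), number 112 of 10804 genes by p-value. Insig1 passed in each of the 16 alternative settings, 6 of which leave out 1 library, with log2 differences of 0.24 to 0.31 and adjusted p of 0.00134 to 0.0196. It lies on chromosome 5 from 28071412 to 28078662 on GRCm38.p6 and overlaps the annotated span of the noncoding gene Gm35223. The labels do not say whether counting used the strand, so reads from both genes cannot be told apart where they overlap.

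Insig2, its relative with the same anchoring role, had 35.26, 33.93 and 32.53 FPKM with control CM and 35.52, 36.30 and 36.72 with Tdo2high CM. Its groups did not overlap, but the log2 difference of 0.09 (95% interval 0.01 to 0.17) did not pass (adjusted p = 0.153 by limma). The other regulators had differences below 0, and none passed. Srebf2 had 32.90, 34.69 and 34.00 FPKM with control CM and 33.12, 33.21 and 34.12 with Tdo2high CM, groups that overlapped throughout (log2 difference -0.02, 95% interval -0.09 to 0.06). Scap, the escort of SREBP2, had 12.46, 12.67 and 12.53 FPKM against 11.96, 12.33 and 12.40. All Tdo2high values of Scap were the lower ones, by 2.58% in the mean, and the difference did not pass (-0.03, 95% interval -0.12 to 0.05). Nr1h2, which encodes LXR beta, went from 36.4 ± 0.587 to 35.5 ± 1.40 FPKM (SD, n = 3 per group) with overlapping groups and an interval of -0.12 to 0.04. SREBP2 is controlled by cutting of the protein, which these mRNA levels do not measure.

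Among the transport genes, Stard4 and Abca1 stood above 0 and the other 3 slightly below. Stard4, which carries cholesterol between membranes through the cytosol, had 12.12, 10.92 and 11.47 FPKM with control CM and 13.65, 14.02 and 12.71 with Tdo2high CM. The lowest Tdo2high library was above the highest control library. Its log2 difference was 0.21 ± 0.05 (SE; 95% interval 0.10 to 0.32; adjusted p = 0.0347 by limma). The call held in 9 of 16 alternatives. It ended without control CM replicate 2 (adjusted p = 0.0969) or 3 (0.088) and without Tdo2high CM replicate 1 (0.0979) or 2 (0.12), while the log2 difference without 1 library stayed between 0.18 and 0.25.

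Abca1, which exports cholesterol to lipoproteins and is a classical LXR target, was among the weakest members in FPKM. It had 2.01, 2.08 and 2.17 FPKM with control CM and 2.58, 2.43 and 2.67 with Tdo2high CM. The groups did not overlap and the mean was 22.7% higher, a relative difference like that of Insig1. At this level the fit was less precise (log2 difference 0.21, 95% interval 0.06 to 0.35), and it did not pass (adjusted p = 0.0873 by limma, and 0.0356 to 0.221 over the alternatives). Abca1 passed in 1 alternative, the fit without an intensity trend.

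The genes of lysosomal release and storage did not pass. Npc2, the soluble partner that hands cholesterol to NPC1, was the most abundant member, with 251 ± 7.96 FPKM in the control and 241 ± 1.76 FPKM in the Tdo2high libraries (SD, n = 3 per group). Npc1, the membrane protein of that pair, had 3.77, 4.04 and 4.18 FPKM with control CM and 3.88, 3.85 and 3.87 with Tdo2high CM, all Tdo2high values within the control range. The annotated span of Npc1 overlaps that of the gene Rmc1, so reads there may be split. Soat1, which esterifies cholesterol for storage, had 29.99, 29.17 and 30.72 FPKM against 28.05, 29.02 and 30.50, again with overlap. The 95% intervals were -0.12 to 0.01 for Npc2, -0.16 to 0.09 for Npc1 and -0.12 to 0.05 for Soat1.

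**Figure D3:**
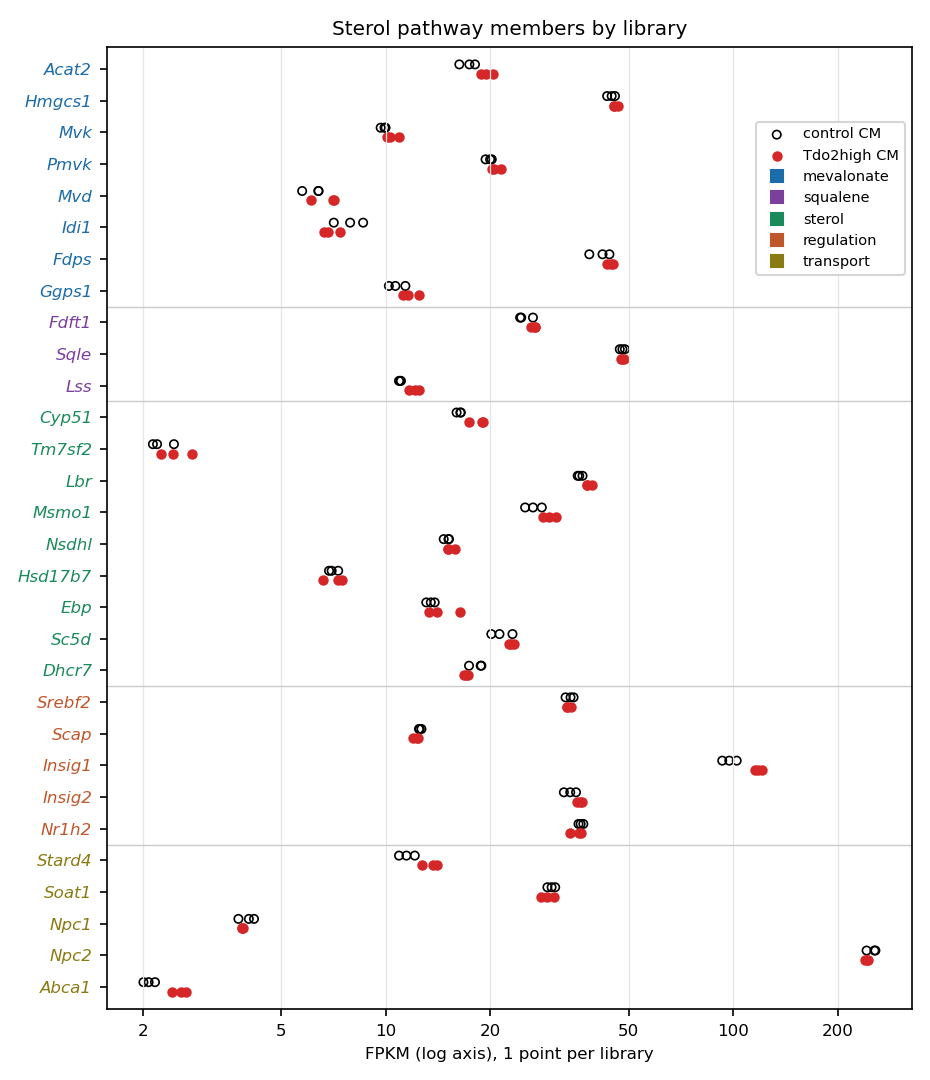
FPKM of each member in each of the 6 libraries on a log axis, control CM as open circles and Tdo2high CM as red points, with gene names coloured by step of the pathway. Members span from about Abca1 and Tm7sf2 near 2 FPKM to Npc2 near 250, and for Insig1, Stard4 and Abca1 the red points lie to the right of all open circles.

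The 20 enzymes of synthesis lay a little higher with Tdo2high CM as a set of values, with few single calls. Their FPKM summed to 403, 397 and 395 in the control libraries and 416, 425 and 415 in the Tdo2high libraries, 5.03% more in the mean. The ranges did not overlap, but no background was made for such sums. Among all tested single genes, 11.6% had all Tdo2high libraries higher. The enzymes were read from the same 6 libraries and are not independent observations. Of the 20, 17 had a log2 difference above 0 (85.0%, against 43.6% of all tested genes) and the median was 0.09. By limma 1 enzyme passed, Cyp51, and none fell; that is 5% of the enzymes, near the background of 3.35%. At an unadjusted p under 0.05 there were 5 higher (25%, background 9.68%) and 2 lower (10%, background 14.1%).

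Among the 8 mevalonate genes, 7 lay above 0 and none passed. At an unadjusted p under 0.05 there was 1 higher and 1 lower, 12.5% each, near the background of 9.68% and 14.1%. Acat2, the cytosolic thiolase that joins 2 acetyl-CoA units, had 17.40, 18.06 and 16.28 FPKM with control CM and 18.81, 19.44 and 20.31 with Tdo2high CM. The groups did not overlap and the log2 difference of 0.17 (95% interval 0.07 to 0.27) just missed the threshold (adjusted p = 0.0531 by limma). Acat2 passed under the median of ratios (0.0391), under quantile normalization (0.0416) and without control CM replicate 2 (0.0469). The neighbouring copy Acat3 did not exceed 0.44 FPKM, and the annotated span of Acat2 overlaps that of the pseudogene Gm20591.

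Hmgcs1, which makes HMG-CoA and carries the short SRE shown above, had 44.64, 43.32 and 45.63 FPKM with control CM and 45.47, 46.52 and 45.48 with Tdo2high CM. The groups overlapped, and the interval of the log2 difference ran from -0.03 to 0.11. Mevalonate kinase, Mvk, had 9.67, 9.99 and 9.92 FPKM against 10.06, 10.90 and 10.27, and phosphomevalonate kinase, Pmvk, had 20.18, 19.37 and 19.96 against 20.49, 20.24 and 21.48. In both kinases the Tdo2high libraries were the higher ones, by 5.58% and 4.54% in the mean, and neither passed (adjusted p = 0.373 and 0.353 by limma).

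The remaining mevalonate genes had overlapping groups. Mvd, the decarboxylase that yields isopentenyl diphosphate, went from 6.19 ± 0.378 to 6.75 ± 0.567 FPKM, Fdps, farnesyl diphosphate synthase, from 41.5 ± 2.78 to 44.3 ± 0.998, and Ggps1, which makes the geranylgeranyl group for protein anchoring, from 10.8 ± 0.596 to 11.7 ± 0.628 (SD, n = 3 per group). Idi1, the isomerase between Mvd and Fdps, stood apart in direction. It went from 7.87 ± 0.761 to 6.94 ± 0.383 FPKM, with a log2 difference of -0.16 (95% interval -0.31 to -0.01), the lowest of all members, and did not pass (adjusted p = 0.195 by limma). Its control libraries were spread from 7.09 to 8.61 FPKM and reached into the Tdo2high range of 6.63 to 7.37.

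In the squalene steps, Sqle, the epoxidase that is a rate-limiting enzyme of the pathway, had the smallest difference of all members. It had 47.10, 48.75 and 47.94 FPKM with control CM and 47.83, 48.34 and 47.35 with Tdo2high CM, so that all Tdo2high values lay within the control range (log2 difference -0.0026, 95% interval -0.07 to 0.06). Lss, which closes the ring to lanosterol, had 10.92, 11.06 and 11.00 FPKM against 11.64, 12.45 and 12.14. The controls of Lss were tight and all Tdo2high libraries were higher, yet the difference of 0.12 (95% interval 0.03 to 0.22) did not pass (adjusted p = 0.0981 by limma). Fdft1, squalene synthase, went from 25.1 ± 1.20 to 26.6 ± 0.430 FPKM (SD, n = 3 per group) with overlapping groups. The annotated span of Fdft1 overlaps that of Ctsb, a neighbouring protease gene, and that of Lss overlaps the noncoding gene 4930483K19Rik. Among these 3 none passed by limma.

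Cyp51, the demethylase that acts next on lanosterol, had 16.39, 15.99 and 16.44 FPKM with control CM and 17.32, 19.01 and 18.87 with Tdo2high CM. Tdo2high replicate 1 was the nearest to the controls and still above them. The log2 difference was 0.17 ± 0.04 (SE; 95% interval 0.07 to 0.26; adjusted p = 0.0426 by limma). The call held in 7 of 16 alternatives. It ended without control CM replicate 1 (adjusted p = 0.0962), 2 (0.105) or 3 (0.088) and without Tdo2high CM replicate 2 (0.14) or 3 (0.135), with log2 differences between 0.14 and 0.21 without 1 library.

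Of the other 8 genes from lanosterol to cholesterol, 7 lay above 0 and none passed by limma. At an unadjusted p under 0.05 there were 2 higher and 1 lower of the 8, where the background is 9.68% and 14.1%. Msmo1, which oxidises the methyl groups that are then removed, had 26.52, 25.17 and 28.11 FPKM with control CM and 28.29, 30.80 and 29.43 with Tdo2high CM (adjusted p = 0.0876). Lbr, a sterol reductase that is also the lamin B receptor of the nuclear envelope, had 36.81, 35.65 and 36.02 FPKM against 37.87, 39.31 and 37.81 (adjusted p = 0.142). In Msmo1 and Lbr the groups did not overlap, with log2 differences of 0.15 and 0.08. Tm7sf2, the reductase with the same sterol activity as Lbr, was much weaker, at 2.27 ± 0.170 and 2.50 ± 0.263 FPKM (SD, n = 3 per group), with overlap. The annotated span of Tm7sf2 overlaps that of the protein-coding gene Vps51.

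Nsdhl and Hsd17b7, partners of Msmo1 in removing the methyl groups, had log2 differences of 0.03 and 0.01, with intervals of -0.06 to 0.11 and -0.11 to 0.14. Ebp, the sterol isomerase, went from 13.5 ± 0.375 to 14.6 ± 1.56 FPKM (SD, n = 3 per group), with overlapping groups: Tdo2high replicate 2 was the highest library at 16.32 FPKM, replicate 3 was at 14.04 against a highest control of 13.83, and replicate 1 lay within the control range. Sc5d, the desaturase, had a log2 difference of 0.10 (95% interval -0.01 to 0.20). Dhcr7, the reductase of the final step, ran the other way, with 18.75, 18.84 and 17.36 FPKM in the control libraries and 17.29, 17.04 and 16.74 in the Tdo2high libraries. All Tdo2high values of Dhcr7 were lower, control replicate 3 being close to them, and the difference of -0.10 (95% interval -0.19 to -0.01) did not pass (adjusted p = 0.175 by limma).

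**Figure D4:**
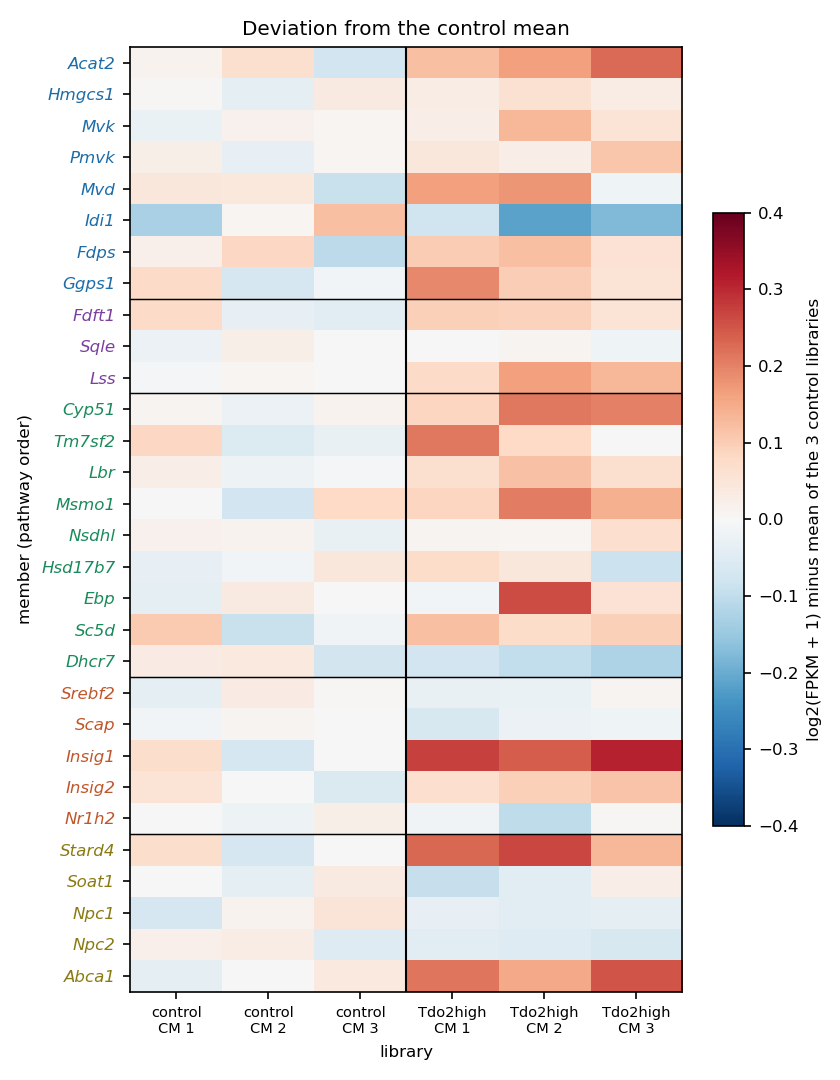
Deviation of each library from the mean of the 3 control libraries, in log2(FPKM + 1), for the 30 members in pathway order (rows) and the 6 libraries (columns); red is higher and blue lower. The 3 Tdo2high columns are red in most enzyme rows, with medians over the members of 0.07, 0.09 and 0.06, while Idi1 and Dhcr7 are blue and Sqle, Srebf2 and Scap are pale.

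The wider pathway was read from a list of 69 other sterol genes chosen by role, of which 68 were in the table and 62 were tested. By limma at an adjusted p under 0.05, none of the 62 rose and 1 fell, and the median was -0.0029. The background was 3.35% of all tested genes called higher and 4.06% called lower, so this 1 call does not exceed it. At an unadjusted p under 0.05 there were 6 higher (9.68%) and 8 lower (12.9%), near the background of 9.68% and 14.1%. The groups did not overlap in 8 genes with Tdo2high CM higher (12.9%) and 9 with it lower (14.5%), near the background shares given above. The gene that fell was Soat2, the second cholesterol esterification enzyme, which some literature calls ACAT2 and which is distinct from the thiolase gene Acat2. Soat2 had 1.72, 1.66 and 1.54 FPKM with control CM and 1.20, 0.73 and 0.93 with Tdo2high CM, a log2 difference of -0.44 ± 0.10 (SE; adjusted p = 0.0244 by limma). It met the expression minimum only through the group where it is higher. The call held in 9 of 15 alternatives and in 1 of the 6 fits without 1 library, that without Tdo2high CM replicate 1; over the alternatives the adjusted p reached 0.0783.

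By role, the 9 tested enzymes outside the members had a median of 0.02. The 13 genes of the isoprenoid branch, which feeds ubiquinone, dolichol and protein prenylation, had a median of 0.01 and no gene with separate groups or an unadjusted p under 0.05. Of the 9 tested genes of uptake and lysosomal release, 3 had all Tdo2high libraries higher (33.3%, background 11.6%) and 1, Lrp1, had all of them lower (11.1%, background 17.5%).

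Of the abundant genes of the list, 4 are named here and none of them passed. Lrp1, a large endocytic receptor, had 84.72, 82.99 and 92.39 FPKM with control CM and 82.14, 81.59 and 82.04 with Tdo2high CM. Its groups did not overlap, with a log2 difference of -0.08 (95% interval -0.17 to 0.01; adjusted p = 0.249 by limma). Acly, which supplies cytosolic acetyl-CoA, had a log2 difference of -0.03, Mbtps1, the protease that makes the first cut in SREBP2, 0.05, and Osbpl9, an oxysterol-binding protein relative, -0.06, each with overlapping groups. The 12 genes of SREBP and LXR regulation had a median of -0.01. In the 19 tested genes of transport, export and ester storage the median was -0.05. Of them, 6, Soat2 included, had all Tdo2high libraries lower (31.6%, background 17.5%), and 2 had all of them higher (10.5%, background 11.6%). Soat2 met the expression minimum only through the control libraries, so its place in the count of lower genes is tied to that minimum.

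**Figure D5:**
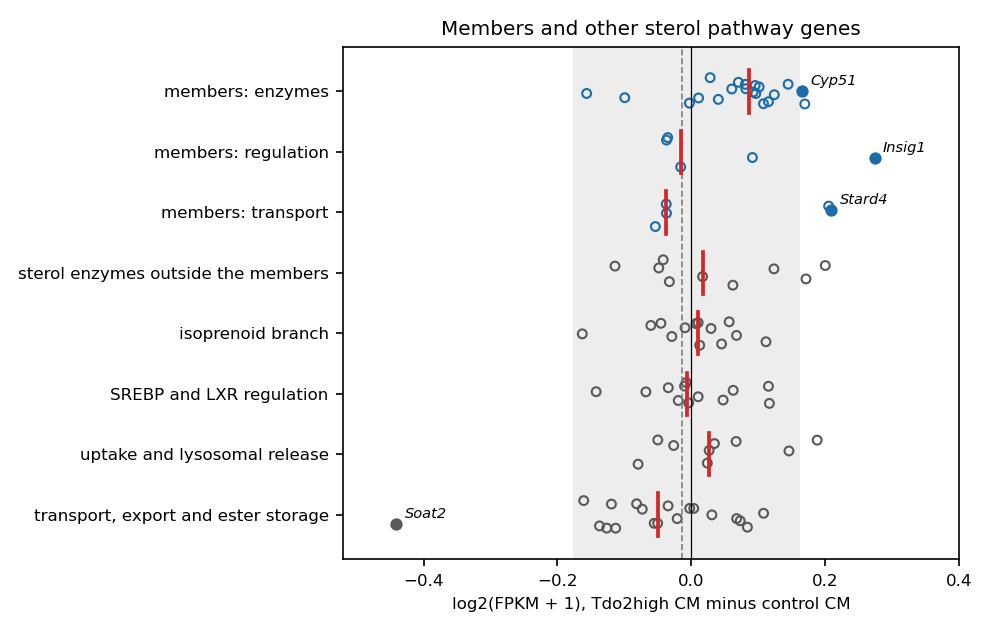
Log2 differences of the members (blue) and of the other sterol genes by role (grey), 1 point per gene, with a red bar at each group's median; filled points passed an adjusted p under 0.05. The grey band holds the middle of all tested genes, from their 5% quantile of -0.18 to their 95% quantile of 0.16; Insig1, Stard4 and Abca1 are among the genes above it, and Soat2 lies below.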

How the data were processed

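The authors deposited 1 table of FPKM for 6 libraries, per the file headers, rounded to 2 decimals; libraries were made from polyA RNA with random hexamers, per the labels' protocols, and GRCm38 is the build in the submitters' processing notes. Aligner, quantifier and annotation: not given in the sources used here. Low values did not resolve into whole reads, so depth is unknown and no counting interval is given. Genes with at least 1 FPKM in at least 3 libraries were tested as log2(FPKM + 1) with limma 3.58.1 in R 4.3.3 (intensity trend, two-sided, no replicate block). The p-values were adjusted by Benjamini-Hochberg over all 10804 genes at 0.05. A trial on simulated independent normal values was also made, and its recovery of differences as small as those of the members is not reported here. With 3 samples against 3, an exact permutation test cannot go below 0.1 and was not used. All members are named; library values are given for those that passed, those without overlap, and Hmgcs1, Sqle, Srebf2, Scap, Insig1, Insig2, Stard4, Npc1, Soat1 and Abca1; other members have means or differences. Of the other list, those that passed and the most abundant others are named, apart from results not reported here. The members and lists were chosen with earlier results of these data known. Promoters and positions come from RefSeq (GRCm38.p6). The test was repeated with changed pseudocount, filter, scaling and variance model, with a replicate block, and without each library. Figures used matplotlib 3.10.9.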

Additional observations from a re-analysis of the deposited data

How the results depend on the processing

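In 16 alternatives, 6 of which leave out 1 library, the median over the members stayed above 0. It was 0.081 as reported, 0.073 rescaled to TPM, 0.095 under the median of ratios, 0.089 under quantile normalization and 0.063 to 0.088 without 1 library. Members called higher numbered 3 as reported, beside 362 of all 10804 tested genes. They numbered 1 with no filter on low values (199 of 16397 genes) and 1 with the replicate block (296 of 10804). Rescaling to TPM gave 2 (320 of all genes) and no intensity trend 2 (248). The median of ratios gave 4 (455) and quantile normalization 4 (385). Without 1 library there were 1 to 2 (209 to 293), with 1 without control CM replicate 3 or Tdo2high CM replicate 2. No alternative called a member lower. Insig1 was the member that passed in all 16 alternatives.

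Over all genes, no filter gave 199 higher and 195 lower, no intensity trend 277 lower, and leaving out 1 library 209 to 293 higher and 186 to 266 lower, against 362 and 439. Among the other sterol genes, 1 was called higher with no intensity trend (Lrp8) and 0 to 1 without 1 library (Lipa, without control CM replicate 1); the count called lower went from 1 to 0 with no filter and with 1 FPKM asked of all 6 libraries, where Soat2 was not tested, and was 0 to 1 without 1 library. The sign turned for 3 members near 0, none of which passed in any of these fits: Sqle reached 0.011 under the median of ratios and ran from -0.015 to 0.009 in the fits without 1 library (above 0 without control replicate 2 and without Tdo2high replicate 3, at 0.005), Srebf2 ran from -0.036 to 0.001 (above 0 without control replicate 2), and Hsd17b7 from -0.021 to 0.060 (-0.005 without control replicate 1 and -0.006 without Tdo2high replicate 2). The cause was not tested.

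Samples with the same number did not deviate together (r = -0.02, -0.03 and 0.02), and no sample correlated best with its own number. The replicate block was thus not read as a pairing, though such correlations cannot show how the samples were grown. With the block, Stard4 had adjusted p = 0.055 and Cyp51 0.068 by limma. Unknown depth and 3 libraries per group limit precision: the median half-width of the members' 95% intervals was 0.09 on the log2 scale.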
